A study of Homo sapiens with 9 samples.

Results

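MTAP-positive HT1080 cells whose enzyme had been blocked with MT-DADMe-ImmA were compared with HT1080 cells that lack the enzyme. HT1080 is an established line grown from a human fibrosarcoma. The comparison used 6 of the 9 arrays of the series: 3 of MTAP-positive cells harvested after 48 hours with 10 µM inhibitor, and 3 of MTAP-negative cells that had received no treatment. The other 3 arrays, of untreated MTAP-positive cells, entered the fit and are given beside the results. All 3 groups were HT1080 cells grown in DMEM, and arrays within a group are biological replicates, per the design text. The labels do not tell the origin of the MTAP-positive cells, or whether they are 1 clone or a pool. MTAP-negative cells with inhibitor were not analysed here. A difference between the groups therefore holds the presence of the enzyme, the compound and any difference of lineage between the 2 kinds of cell, which cannot be told apart. The compared features were the 17466 probe sets with values that are not controls, of 54675 listed, and they represented 9453 genes.

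MTAP, 5'-methylthioadenosine phosphorylase, cleaves methylthioadenosine, which cells release when they make spermidine and spermine. From its products cells rebuild methionine and recover adenine. MT-DADMe-ImmA resembles the transition state of this reaction and binds the enzyme tightly. Methylthioadenosine that is not cleaved can accumulate and inhibit the arginine methyltransferase PRMT5, whether the enzyme is missing or blocked. The array measured mRNA, and neither the protein, its activity nor methylthioadenosine was measured in the values used here.

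MTAP mRNA followed the labels on each of the 6 arrays. Its probe set of highest mean read 4.41, 4.25 and 5.02 (log2) in MTAP-negative cells and 11.21, 11.30 and 11.10 in inhibitor-treated cells. The second MTAP probe set with values read 4.07, 3.86 and 3.96 against 11.55, 11.29 and 11.33. Every probe set in the deposited table reached log2 6.64, a linear value of 100, on at least 3 of the 9 arrays, and signal under this level was not shown to lie above background. Where a group mean was below it, a fold is therefore counted from 6.64 and given as "at least". MTAP was at least 23.6-fold higher in inhibitor-treated cells by the first probe set and at least 26.9-fold by the second. MTAP was left out of all counts of genes.

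Arrays correlated over probe sets at 0.973 to 0.988 within the 2 groups and at 0.924 to 0.947 between them. The median of all probe sets was 8.24 to 8.33 in MTAP-negative arrays and 8.35 to 8.36 in inhibitor-treated arrays, an exact two-sided permutation p = 0.1, the smallest that 3 against 3 arrays allow. RNA quality was read from the ACTB control, in which signal near the 5' end falls behind that near the 3' end as RNA degrades. The 5' signal less the 3' signal was -1.81, -2.17 and -3.52 in MTAP-negative arrays and -1.93, -0.88 and -2.09 in inhibitor-treated arrays (log2; exact two-sided permutation p = 0.4). The GAPDH control read -0.27, -0.51 and -1.06 in MTAP-negative arrays and -0.28, -0.08 and -0.32 in inhibitor-treated arrays (exact two-sided permutation p = 0.3). MTAP-negative replicate 3 stood lowest in both controls. The mesenchymal marker vimentin, VIM, was high in both groups, at 14.02 ± 0.05 and 14.00 ± 0.05 (log2, SD, n = 3). Of 16 blood markers 1 had values (LYZ, 4.89 against 5.68 and so below 6.64 in both groups), and of the liver markers none did. Of 16 epithelial, 14 endothelial or smooth muscle and 16 neural or melanocyte markers, 3, 2 and 4 had values, with 1 higher (KRT7, by 1 of its 2 probe sets), 1 higher (MCAM) and 1 higher and 2 lower. Of 24 mesenchymal markers 14 had values, and 7 of these were higher and 1, SNAI2, was lower.

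Each probe set was tested with limma, with Benjamini-Hochberg adjustment over all 17466. Of 9452 genes other than MTAP, each read through its probe set of highest mean, 3042 passed at an adjusted p below 0.05, which is 32.2%. Of these, 1636 were higher in inhibitor-treated cells (17.3% of all genes tested) and 1406 were lower (14.9%). In bulk RNA, fewer cells of a type and less RNA per cell cannot be told apart. The median difference over all genes was 0.002 (log2, inhibitor-treated minus MTAP-negative). The share of higher genes among those called was 53.8%. It turned to 44.4% after the arrays were centred on their medians and to 45.1% after a renewed quantile normalisation, so the data give no stable majority of either direction. Without inhibitor-treated replicate 3 the count of lower genes was 887.

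Large differences were mostly rises. A change of at least 2-fold, counted from 6.64 where a mean lay below it, was seen in 282 genes that rose (2.98%) and 127 that fell (1.34%). The 3 arrays of one group lay entirely above the 3 of the other for 4981 genes (52.7%), and for 3031 of the 3042 called genes. A group mean lay below 6.64 for 633 genes. The table lists 28 genes only because of their inhibitor-treated arrays and 39 only because of their MTAP-negative arrays, and these had to differ to be listed. Of the same 9452 genes, 1431 (15.1%) passed between untreated MTAP-positive and MTAP-negative cells, and 1000 (10.6%) between inhibitor-treated and untreated MTAP-positive cells. Same-numbered arrays deviated together in these 2 comparisons, and with the replicate number as a block 2040 (21.6%) and 1508 (16.0%) passed. Without the block, in the first of these 9.83% were higher and 5.31% lower in MTAP-positive cells (8.27% lower with the block), and in the second 4.63% were higher and 5.95% lower with inhibitor (7.08% higher with the block). The plot of difference against level shows that rises of more than 2 (log2) occurred from low to high levels, while falls of that size were few.

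**Figure D1:**
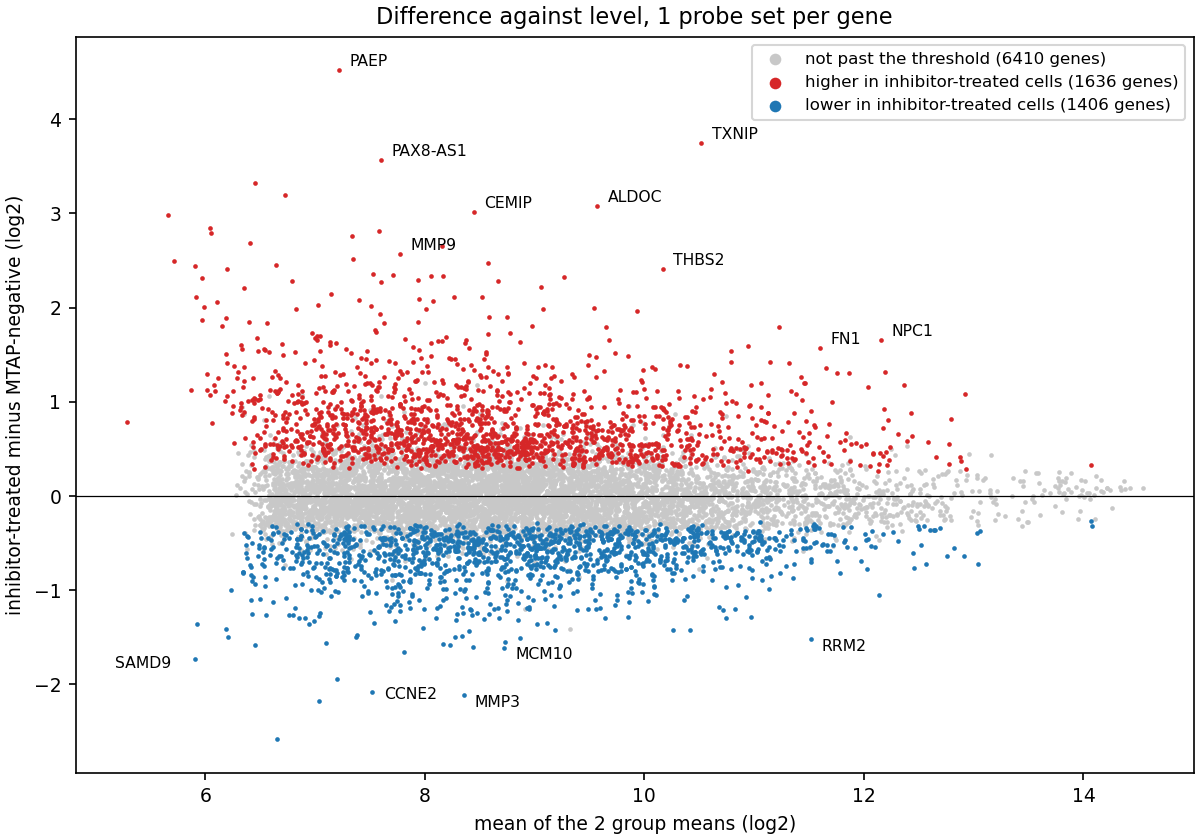
Each point is 1 of 9452 genes, placed by the mean of the 2 group means (x axis, log2) and by the inhibitor-treated minus MTAP-negative difference (y axis, log2). Red points (1636 genes) were higher and blue points (1406 genes) lower with an adjusted p below 0.05; TXNIP (3.75) and PAEP (4.52) lie at the top and MMP3 (-2.11) near the bottom.

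With folds counted from 6.64, TXNIP rose most after MTAP itself. It encodes the thioredoxin-interacting protein, an arrestin-like protein that restrains glucose uptake and is known to be induced by glucose metabolites. It read 8.58, 8.67 and 8.67 (log2) in MTAP-negative cells and 12.32, 12.48 and 12.38 in inhibitor-treated cells, with 10.55, 10.34 and 11.36 in untreated MTAP-positive cells. The 3 groups did not overlap, and the untreated MTAP-positive arrays lay between the others. The difference of 3.75 ± 0.22 (log2 ± SE) was a 13.4-fold rise (limma, Benjamini-Hochberg adjusted p = 2.13e-05), and the other 2 TXNIP probe sets differed by 3.90 and 3.79. The TXNIP promoter is known for a pair of E-box elements that bind the glucose-sensing factors MLXIP and MLXIPL, and it is shown here because the gene led the comparison. In the RefSeq sequence (GRCh38.p14, chr1:145996560-145996709, minus strand, 130 bases before to 20 after a start site), the capitals mark the pair (CACGNG on each side of 5 bases, searched on both strands), whose first base lies 88 bases before the start.

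TXNIP: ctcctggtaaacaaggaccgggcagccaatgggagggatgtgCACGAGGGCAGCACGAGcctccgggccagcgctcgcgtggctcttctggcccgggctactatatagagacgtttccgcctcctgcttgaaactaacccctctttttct

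These letters occurred in 20 of all 35116 RefSeq promoter windows of 300 bases (0.1%), and in 1 of the 2 windows of TXNIP. Among 62 windows of the hypoxia and glycolysis genes described further on, those of TXNIP and of P4HA1, a collagen prolyl hydroxylase, held a match. A match describes the sequence and does not show binding. The motifs in this account were chosen with the values known, and none of them contains another.

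ALDOC, a glycolytic aldolase, was the second largest rise. It read 7.93, 8.25 and 7.92 in MTAP-negative cells and 11.04, 11.16 and 11.13 in inhibitor-treated cells, an 8.45-fold difference (3.08 ± 0.12, adjusted p = 1.38e-06). No array of one group came within 2 units of the other. CEMIP, a hyaluronan-binding protein, rose 8.1-fold (3.02 ± 0.37), from 6.94 ± 0.09 to 9.96 ± 0.17 (SD, n = 3).

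PAEP, which encodes the secreted lipocalin glycodelin, came up from low signal. It read 5.02, 5.04 and 4.81 in MTAP-negative cells and 9.45, 9.48 and 9.49 in inhibitor-treated cells, a difference of 4.52 ± 0.22 and a rise of at least 7.12-fold from 6.64 (adjusted p = 7.05e-06). Its inhibitor-treated arrays agreed closely, while its MTAP-negative arrays were all under the level that probe sets had to reach. The antisense RNA PAX8-AS1 (at least 6.69-fold), the gelatinase MMP9 (at least 5.33-fold) and the prostaglandin E synthase PTGES (at least 5.07-fold) also had MTAP-negative means below 6.64. The adhesion protein FLRT3 rose 6.28-fold, the integrin subunit ITGA10 5.57-fold, the matrix glycoprotein THBS2 5.31-fold, the glypican GPC6 5.05-fold and the transcription factor KLF9 5.04-fold. Probe strand was not examined, so that signal of PAX8-AS1 and of PAX8 was not separated.

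Counted in the same way, the stromelysin MMP3 fell most. It read 9.40, 9.36 and 9.48 in MTAP-negative cells and 7.25, 7.13 and 7.54 in inhibitor-treated cells, a 4.31-fold fall (-2.11 ± 0.16, adjusted p = 5.47e-05). The 2 sets of arrays lay well apart, and untreated MTAP-positive cells, at 7.85, 7.76 and 7.32, overlapped the inhibitor-treated ones. CCNE2, an E-type cyclin that drives S phase entry, read 8.52, 8.81 and 8.35 against 6.36, 6.80 and 6.27 and was at least 3.77-fold lower. The Wnt inhibitor DKK1 fell 3.15-fold (-1.66 ± 0.23, adjusted p = 9.75e-04), from 8.64 ± 0.26 to 6.98 ± 0.25 (SD, n = 3).

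The other large falls were TMEM201, a protein of the inner nuclear membrane (3.05-fold), the MYB relative MYBL1 (3.03-fold), the centrosome protein CEP78 (2.99-fold) and the S phase gene TCF19 (2.97-fold). The replication factor MCM10 fell 2.93-fold, the KIT ligand KITLG at least 2.89-fold, the ribonucleotide reductase subunit RRM2 2.86-fold, the nucleosome-binding HMGN3 2.83-fold and the chromatin remodeller HELLS 2.82-fold. TMEM201 rested on its brighter probe set, since the other, at 7.03 and 7.07, differed by 0.05 (adjusted p = 0.755). In the plot of the leading genes, untreated MTAP-positive arrays sit nearer to the inhibitor-treated ones for KLF9, ITGA10, PTGES, MMP3, DKK1 and KITLG, and between the groups for TXNIP, PAX8-AS1, TCF19 and RRM2.

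**Figure D2:**
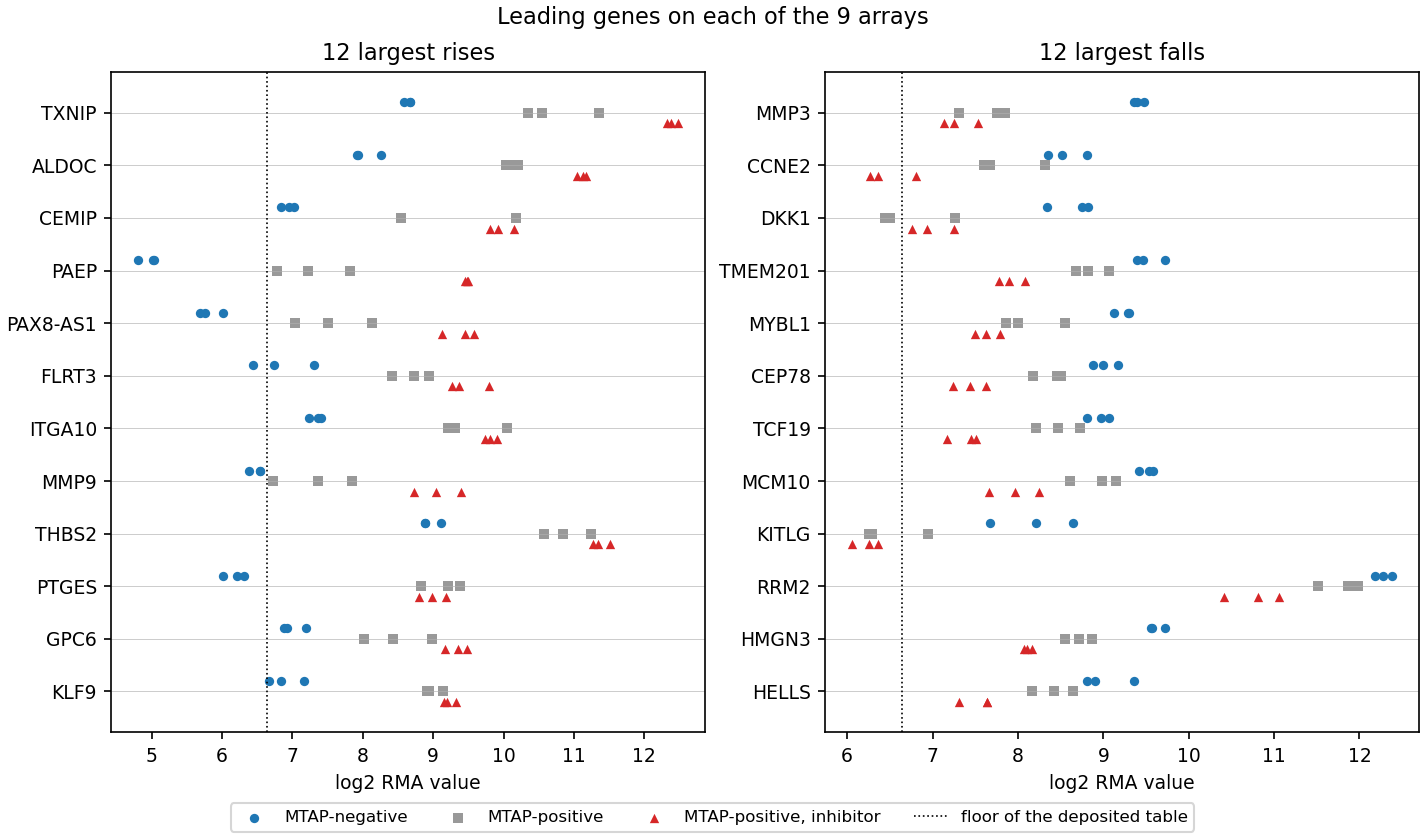
Log2 values (x axis) of the 12 largest rises and the 12 largest falls on all 9 arrays: blue circles MTAP-negative, grey squares untreated MTAP-positive, red triangles MTAP-positive with inhibitor, dotted line the level of 6.64 that each listed probe set reached on at least 3 arrays. In all 24 genes the 3 blue circles lie apart from the 3 red triangles.

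Cell division genes fell. Of 55 genes of mitosis and the spindle with values, 42 were lower in inhibitor-treated cells and 0 were higher, with a median difference of -0.68 (all genes tested: 14.9% lower, 17.3% higher, median 0.002). SPC25, a subunit of the kinetochore complex that holds microtubules, read 9.07, 9.16 and 9.12 in MTAP-negative cells and 7.74, 7.76 and 7.57 in inhibitor-treated cells. It fell by 1.43 ± 0.12 (log2 ± SE), or 2.69-fold (adjusted p = 9.64e-05), and its groups lay more than 1 unit apart. The mitotic entry factor CDCA3 fell 2.67-fold (-1.42 ± 0.15), from 9.79, 9.95 and 9.94 to 8.65, 8.52 and 8.26. The condensin subunit NCAPG fell 2.49-fold (-1.32 ± 0.14), from 9.51 ± 0.08 to 8.19 ± 0.17 (SD, n = 3), and the cytokinesis protein ANLN 2.46-fold (-1.30 ± 0.21).

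In untreated MTAP-positive cells SPC25 averaged 8.80, CDCA3 9.71, NCAPG 9.45 and ANLN 10.91. None of the 4 passed against MTAP-negative cells (adjusted p = 0.104, 0.409, 0.809 and 0.146), but ANLN did with the replicate number as a block (adjusted p = 0.0352). Of the 55 genes 1 was lower in untreated MTAP-positive than in MTAP-negative cells (beside 5.31% of all genes), or 5 with the block (8.27%). With inhibitor 29 were lower than without it (beside 5.95% of all genes), or 37 with the block (8.88%). These comparisons share arrays with the main one and are not independent of it. SMC4, a core subunit of condensin, missed the threshold at -0.46 ± 0.22 (adjusted p = 0.135).

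Promoters of mitotic genes are known for the CHR element, TTTGAA, through which the DREAM complex represses them in resting cells. The sequences of the 3 leading members are shown because all of them hold it near the start site. They are RefSeq windows (GRCh38.p14) from 130 bases before to 20 after the start: SPC25 at chr2:168890411-168890560 on the minus strand, CDCA3 at chr12:6851267-6851416 on the minus strand and NCAPG at chr4:17810849-17810998 on the plus strand. Capitals mark TTTGAA, whose first base lies 3, 3 and 35 bases before the start.

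SPC25: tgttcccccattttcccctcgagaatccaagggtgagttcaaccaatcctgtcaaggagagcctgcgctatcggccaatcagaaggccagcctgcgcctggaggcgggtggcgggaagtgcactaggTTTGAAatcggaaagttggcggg
CDCA3: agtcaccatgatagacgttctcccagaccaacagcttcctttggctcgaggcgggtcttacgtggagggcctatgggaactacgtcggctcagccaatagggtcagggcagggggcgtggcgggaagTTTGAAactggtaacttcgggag
NCAPG: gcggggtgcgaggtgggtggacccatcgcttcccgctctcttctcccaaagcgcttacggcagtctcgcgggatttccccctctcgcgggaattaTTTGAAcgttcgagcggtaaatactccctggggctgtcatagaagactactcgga

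Over the 54 windows of the 46 mitosis genes that matched a RefSeq promoter, 36 held TTTGAA on either strand (66.7%). The share was 15.2% over all 35116 windows and 10.6% over the windows of the genes tested. The CCAAT box was in 64.8% of the mitosis windows, 34.6% of all windows and 35.2% of the windows of the genes tested. For the E2F-type letters GGCGGGAA these shares were 9.3%, 3.2% and 5.0%.

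Genes of DNA replication fell in the same way: 27 of 46 were lower and 0 higher, with a median difference of -0.50. RRM2, which makes the DNA precursors, read 12.18, 12.28 and 12.38 in MTAP-negative cells and 10.82, 11.06 and 10.41 in inhibitor-treated cells (-1.52 ± 0.18, adjusted p = 3.95e-04). All its inhibitor-treated arrays were at least 1 unit below the MTAP-negative ones. The licensing inhibitor GMNN fell 2.68-fold and the origin-loading factor CDC6 2.48-fold, while DUT, the dUTPase, differed by 0.16 ± 0.12 and did not pass. Of the 57 windows of replication genes 13 held GGCGGGAA (22.8%), beside 3.2% of all windows and 5.0% of the windows of the genes tested. Among regulators of G1 and S phase, 18 of 32 were lower and 3 were higher (median -0.48). The shares were 56.2% and 9.38%, beside 14.9% and 17.3% of all genes. The cyclin CCND3 fell 2.47-fold, SKP2, which directs the cell cycle inhibitor p27 to destruction, 2.44-fold, and the phosphatase CDC25A 2.41-fold. The 3 that rose were E2F5, the p27 gene CDKN1B (0.71) and the RB relative RBL2 (0.60), all of them known for restraining the cycle. E2F5 averaged 5.08 in MTAP-negative cells, so that its rise is a lower bound of 0.49 (log2). CDK4, at 11.68 ± 0.12 and 11.67 ± 0.12 (SD, n = 3), did not pass.

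**Figure D3:**
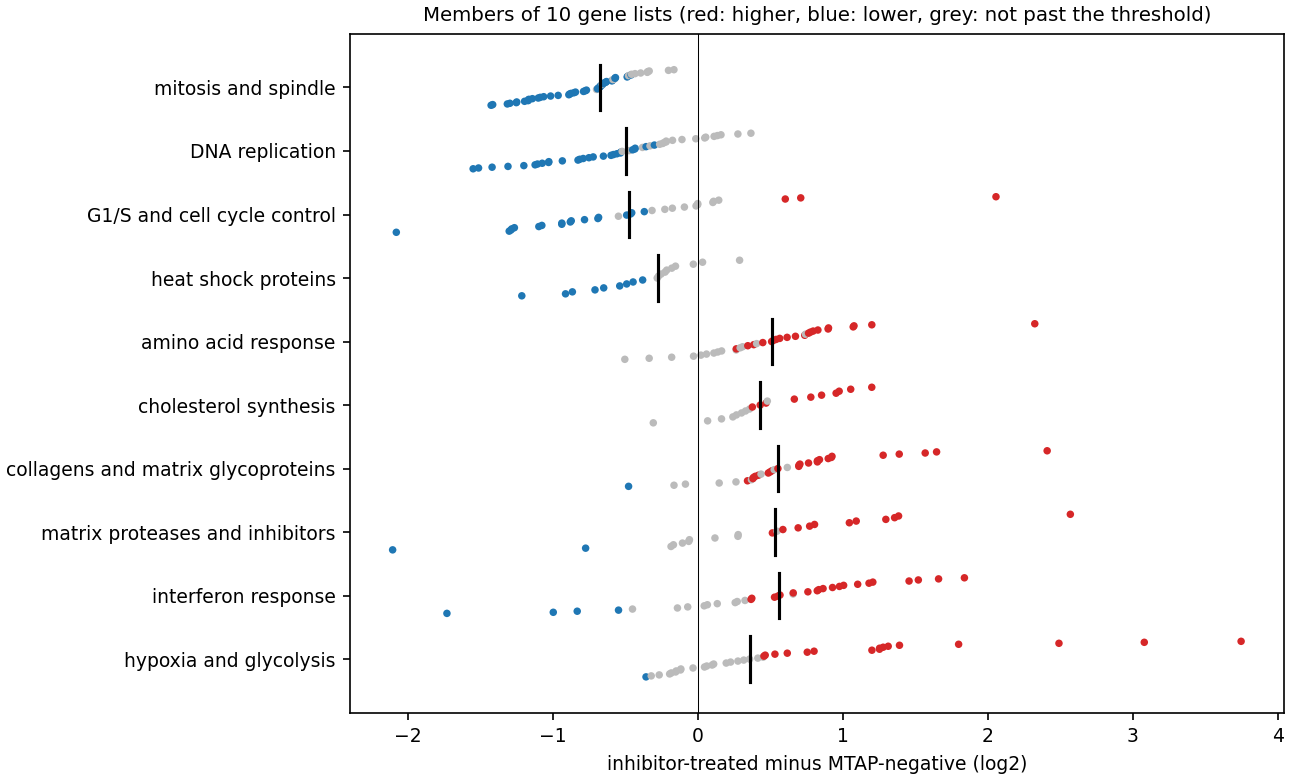
Inhibitor-treated minus MTAP-negative difference (x axis, log2) of each member with values of 10 gene lists, red if higher and blue if lower with an adjusted p below 0.05, grey otherwise; the black bar is the list's median. The medians run from -0.68 for mitosis to 0.56 for the interferon response, and no member of the mitosis list lies above 0.

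Targets of the amino acid response rose. When amino acids run short, uncharged tRNA activates the kinase GCN2 and raises translation of the transcription factor ATF4, which induces genes of amino acid synthesis, transport and tRNA charging. Of 35 such genes 21 were higher in inhibitor-treated cells (60%, beside 17.3% of all genes) and 0 were lower (beside 14.9%). Their median difference was 0.51. After centring or a renewed quantile normalisation 1 was lower. DDIT4, an inhibitor of mTORC1 that also responds to hypoxia and glucocorticoids, rose 5.0-fold, from 8.39, 7.99 and 7.92 to 10.37, 10.49 and 10.43 (2.32 ± 0.13, adjusted p = 2.13e-05). Its arrays left a gap of almost 2 units. The transcription factors CEBPB and DDIT3 rose 2.29-fold and 2.11-fold, and ATF4 itself by 0.67.

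ASNS, asparagine synthetase, is the classical target of this response. It read 10.69, 10.39 and 10.70 in MTAP-negative cells, 11.64, 11.60 and 11.75 in inhibitor-treated cells and 10.32 on average in untreated MTAP-positive cells. It was 2.1-fold higher in inhibitor-treated than in MTAP-negative cells (1.07 ± 0.13, adjusted p = 4.30e-04), and the groups did not overlap. Its promoter is shown because it holds the composite CEBP-ATF element TGATGNAAN, in capitals, 68 bases before the start (GRCh38.p14, chr7:97872389-97872538, minus strand).

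ASNS: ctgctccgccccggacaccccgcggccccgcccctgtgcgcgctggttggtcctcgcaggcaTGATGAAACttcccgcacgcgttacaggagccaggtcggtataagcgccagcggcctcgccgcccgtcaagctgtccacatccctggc

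The element, searched on both strands, was in 13 of the 49 windows of 30 matched genes of the list (26.5%), in 3.6% of all windows and in 2.0% of the windows of tested genes. The 13 genes with a match were AARS1, ASNS, CARS1, CEBPG, CHAC1, GARS1, IARS1, NARS1, SLC1A4, SLC1A5, SLC3A2, SLC7A1 and TARS1, which are tRNA synthetases, amino acid transporters, ASNS, the glutathione-degrading CHAC1 and the partner of ATF4 CEBPG. Of them NARS1, the brightest member that did not pass, differed by 0.11 ± 0.11. In untreated MTAP-positive cells 3 of the 35 genes were higher (6 with the replicate block) and 2 lower than in MTAP-negative cells. Over all genes 9.83% were higher there (13.3% with the block) and 5.31% lower. With inhibitor 14 of the 35 were higher and 1 lower than without, beside 4.63% and 5.95% of all genes.

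Enzymes that take up the sulfur of homocysteine rose with this group. Of 18 genes of the methionine cycle and folate metabolism 8 were higher (44.4%, beside 17.3% of all genes) and 2 lower (11.1%, beside 14.9%). Their median was 0.30. CBS, which joins homocysteine to serine, rose 2.52-fold, from 8.08, 7.85 and 7.94 to 9.24, 9.26 and 9.37 (1.33 ± 0.10, adjusted p = 6.56e-05). CTH, the next enzyme towards cysteine, rose 1.9-fold (0.93 ± 0.10) and PHGDH, which starts serine synthesis, 1.73-fold, while thymidylate synthase, TYMS, fell 1.65-fold and MTHFD1 by 0.33. The falls became 1 without any 1 MTAP-negative array, MTAP-positive replicate 3 or inhibitor-treated replicate 2 or 3. The number of rises was 4 without MTAP-negative replicate 3, 4 without inhibitor-treated replicate 1 and 5 without inhibitor-treated replicate 2.

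Of the 6 other genes with values of the salvage pathway that MTAP starts, 1 was higher and 2 were lower (median -0.30), 3 calls in 6 genes beside 32.2% of all genes. KYAT1, a transaminase that can act on the last intermediate, rose 2.22-fold, from 7.75, 7.68 and 7.75 to 8.78, 8.88 and 8.98 (1.15 ± 0.12, adjusted p = 1.82e-04). The dioxygenase ADI1 fell by 0.68 ± 0.12 and the phosphatase ENOPH1 by 0.50 ± 0.09. MRI1, which isomerises the sugar product of MTAP, was at 10.27 ± 0.21 and 10.24 ± 0.07 (SD, n = 3) and did not pass.

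Of 18 polyamine genes 4 were higher (22.2%, beside 17.3% of all genes) and 4 lower (22.2%, beside 14.9%), with a median of -0.06. The falls were ODC1, SRM, AZIN1 and AMD1. ODC1, which makes putrescine, read 12.96, 12.62 and 12.94 against 12.09, 12.09 and 12.04 (-0.77 ± 0.12, adjusted p = 0.00161), and spermidine synthase, SRM, fell by 0.74 ± 0.13. AZIN1, which protects ODC1 from degradation, fell by 0.91 ± 0.11 on its brighter probe set, while the other, at 9.43 and 9.37, differed by -0.06 (adjusted p = 0.706). AMD1, which supplies the aminopropyl groups, fell by 0.42. The rises were the arginase ARG2 (1.25), the acetyltransferase SAT1 that starts polyamine breakdown (0.61), the transporter subunit SLC3A2 (0.56) and DHPS (0.53), which uses spermidine to modify EIF5A. The second ARG2 probe set missed the threshold at 0.45 (adjusted p = 0.0896). Once probe sets marked for several transcripts were dropped ARG2 was read through it and lost its call (adjusted p = 0.0834), and 1 of 11 polyamine genes was higher. The antizyme OAZ1 differed by -0.03 ± 0.12. The 4 rises became 2 without inhibitor-treated replicate 1.

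Arginine methyltransferases and their partners had 5 of 16 members lower (31.2%, beside 14.9% of all genes) and 0 higher (median -0.22). WDR77, the partner of PRMT5 in the methylosome, read 9.65, 9.64 and 9.53 in MTAP-negative cells and 8.70, 8.94 and 8.64 in inhibitor-treated cells, a 1.8-fold fall (-0.84 ± 0.12, adjusted p = 0.00101). Its arrays did not overlap, and untreated MTAP-positive cells, at 9.09 on average, lay between. PRMT6 fell 1.63-fold (-0.71 ± 0.13), and PRMT7 by 0.54, from 6.80 to 6.27 and so to below 6.64. PRMT3 (-0.44 ± 0.13) and the PRMT5 cofactor COPRS (-0.42 ± 0.11) lost the call without inhibitor-treated replicate 3 (adjusted p = 0.0612 and 0.0615). The number of falls was 2 without that array, 3 without inhibitor-treated replicate 1 or 2, and 3 without MTAP-negative replicate 3. SNRPB, an Sm protein that PRMT5 methylates, differed by -0.10 ± 0.16.

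Purine genes had 2 of 18 members higher (11.1%, beside 17.3% of all genes) and 3 lower (16.7%, beside 14.9%), with a median of -0.08. Purine nucleoside phosphorylase, PNP, a relative of MTAP that cleaves inosine and guanosine, read 10.66, 10.69 and 10.61 against 9.94, 9.87 and 9.72 and fell 1.75-fold (adjusted p = 0.00105). PRPS1, which makes the ribose donor, fell by 0.65 and ADSL by 0.46, whereas the AMP deaminase AMPD3 rose by 0.80 and GART by 0.55. IMPDH2 was at 12.49 ± 0.04 and 12.53 ± 0.05 (SD, n = 3) and did not pass.

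Of 19 genes of cholesterol synthesis 10 were higher (52.6%, beside 17.3% of all genes) and 0 lower (beside 14.9%, median difference 0.43). These genes are switched on by SREBP2, through sterol elements in their promoters, when membranes hold little cholesterol. The letters TCACNCCAC of such an element, searched on both strands, were in 1 of 23 windows of the 17 matched genes (4.3%), in 1.1% of all windows and in 1.0% of the windows of tested genes. DHCR7, the last enzyme of the pathway, read 8.58, 8.56 and 7.92 in MTAP-negative cells and 9.56, 9.69 and 9.41 in inhibitor-treated cells, a 2.29-fold rise (1.20 ± 0.19, adjusted p = 0.00147). MSMO1 rose 1.96-fold and the SREBP regulator INSIG1 1.93-fold (0.95 ± 0.11). SREBF2 itself rose 2.07-fold, from 8.97 ± 0.13 to 10.02 ± 0.32 (SD, n = 3), with the call lost in 4 of the 21 alternatives, among them without inhibitor-treated replicate 3 (adjusted p = 0.0678). Of its other 2 probe sets 1 rose by 1.55, and 1, at 7.09 and 7.10, did not pass (adjusted p = 0.99). The isomerase IDI1 differed by 0.33 ± 0.17 and did not pass. Over the 21 alternatives its difference was 0.17 to 0.97, and it passed in 2. The 10 rises became 6 without MTAP-negative replicate 2 and 5 without inhibitor-treated replicate 1. In untreated MTAP-positive cells 1 of these genes was higher and 1 lower than in MTAP-negative cells (4 lower with the replicate block). Over all genes 9.83% were higher there and 5.31% lower (8.27% lower with the block). With inhibitor 11 of the cholesterol genes were higher than without, beside 4.63% of all genes.

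Fatty acid genes had 8 of 19 members higher (42.1%, beside 17.3% of all genes) and 2 lower (10.5%, beside 14.9%, median 0.24). The desaturase SCD rose 2.67-fold, from 10.62, 10.58 and 10.62 to 11.98, 11.88 and 12.22 (1.41 ± 0.13, adjusted p = 1.40e-04), with no overlap. Fatty acid synthase, FASN, read 10.04, 8.97 and 7.82 in MTAP-negative cells and 10.97, 10.84 and 10.93 in inhibitor-treated cells (1.97 ± 0.43, adjusted p = 0.00802). Its MTAP-negative arrays spread over more than 2 units in the order of the ACTB control, and its rise was 1.41 ± 0.27 without MTAP-negative replicate 3. The 8 rises became 4 without inhibitor-treated replicate 1 or 2. The 2 falls were the acyltransferase GPAM (-0.46) and the elongase ELOVL6 (-0.61), the latter lost without inhibitor-treated replicate 3 (adjusted p = 0.0776), inhibitor-treated replicate 2 (0.0724) or MTAP-negative replicate 2 (0.0626).

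In the list of lysosome and autophagy genes 14 of 36 rose and 1, ATG5 (-0.50), fell (median 0.24). The shares were 38.9% and 2.78%, beside 17.3% and 14.9% of all genes. NPC1, which exports cholesterol from the lysosome, read 11.25, 11.39 and 11.36 in MTAP-negative cells and 13.01, 12.87 and 13.07 in inhibitor-treated cells. This was a 3.15-fold rise of an already abundant mRNA (1.65 ± 0.11, adjusted p = 3.88e-05), with untreated MTAP-positive cells between the groups at 12.30. The glucosidase GAA rose 2.71-fold, the autophagy protein WIPI1 1.92-fold and the saposin precursor PSAP 1.89-fold. LAMP1, a main protein of the lysosomal membrane, differed by 0.02 ± 0.14 and did not pass. Over the 21 alternatives its difference was -0.06 to 0.38, and it passed in 1.

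Genes of the extracellular matrix rose. Of 33 collagens, laminins and other matrix glycoproteins 24 were higher and 1, fibrillin FBN1 (-0.48), was lower, with a median difference of 0.55. The shares were 72.7% and 3.03%, beside 17.3% and 14.9% of all genes. THBS2, a thrombospondin, read 8.88, 8.89 and 9.12 in MTAP-negative cells and 11.51, 11.34 and 11.27 in inhibitor-treated cells (2.41 ± 0.16, adjusted p = 3.74e-05). Fibronectin, FN1, rose 2.96-fold (1.57 ± 0.16), from 10.61, 10.94 and 10.90 to 12.50, 12.38 and 12.26, and all 4 of its probe sets rose by 1.49 to 1.57. No array of one group reached those of the other for either gene. The basement membrane linker NID1 rose 2.62-fold (1.39 ± 0.14), and the collagen chain COL6A2 by 1.65 ± 0.36, or 1.15 ± 0.19 without MTAP-negative replicate 3. The FBN1 call was lost without MTAP-negative replicate 1 or 2 or inhibitor-treated replicate 2 or 3. PLOD2, a collagen lysyl hydroxylase, differed by 0.26 ± 0.16 and did not pass. Untreated MTAP-positive cells were already high, at 10.89 for THBS2 and 12.15 for FN1. In them 16 of the 33 genes were higher than in MTAP-negative cells, beside 9.83% of all genes.

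Of 22 matrix proteases and protease inhibitors 11 rose (50%, beside 17.3% of all genes) and 2 fell (9.09%, beside 14.9%, median 0.53). MMP9 read 6.39, 6.55 and 6.53 in MTAP-negative cells and 9.40, 9.04 and 8.73 in inhibitor-treated cells, a rise of at least 5.33-fold (adjusted p = 1.93e-04). Untreated MTAP-positive cells were at 7.36, 6.72 and 7.84, below all inhibitor-treated arrays. MMP2, the other gelatinase, rose 2.61-fold (1.38 ± 0.20), and SERPINE2, an inhibitor of thrombin and urokinase, 2.56-fold (1.36 ± 0.10). The falls were MMP3 and the metalloprotease ADAMTS6 (-0.78), and the collagenase MMP1 was at 12.79 ± 0.05 and 12.91 ± 0.07 (SD, n = 3) and did not pass.

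Among integrins and adhesion molecules, 7 of 22 rose (31.8%, beside 17.3% of all genes) and 1 fell (4.55%, beside 14.9%, median 0.30). ITGA10, a collagen-binding subunit, read 7.37, 7.24 and 7.41 against 9.81, 9.91 and 9.73 (2.48 ± 0.19, adjusted p = 6.67e-05). ITGA3 rose 1.92-fold and ITGB5 1.89-fold, while the common subunit ITGB1 differed by 0.17 ± 0.13 and did not pass. Over the 20 alternatives run for ITGB1 its difference was 0.11 to 0.75, and it passed in 1. The fall was the adhesion molecule ALCAM (-0.66 ± 0.20), whose other probe set differed by -0.25 (adjusted p = 0.559) and whose call was lost in 6 of the 21 alternatives, such as those that left out MTAP-negative replicate 2 (adjusted p = 0.0853) or 3 (0.091) or inhibitor-treated replicate 1 (0.104) or 2 (0.0608). Of 26 actin genes 2 were higher and 2 lower (7.69% each, beside 17.3% and 14.9% of all genes, median -0.07). The counts were 1 to 3 and 0 to 2 when any 1 of the 9 arrays was left out, the 0 without inhibitor-treated replicate 3. The falls numbered 4 with centred arrays, 5 after a renewed quantile normalisation, 4 with trend and robust moderation and 4 with array weights. ZYX, a focal adhesion protein, rose by 0.68 ± 0.12, and cofilin, CFL1, differed by -0.24 ± 0.09 and did not pass.

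TGF-beta signalling genes had 14 of 27 members higher (51.9%, beside 17.3% of all genes) and 2 lower (7.41%, beside 14.9%, median 0.45). The receptor TGFBR2 read 10.46, 10.46 and 10.38 in MTAP-negative cells and 11.83, 11.90 and 11.84 in inhibitor-treated cells, a 2.68-fold rise (1.42 ± 0.09, adjusted p = 2.29e-05). PMEPA1, a feedback target of the pathway, rose 4.33-fold (2.11 ± 0.15), and the activin subunit INHBA at least 4.27-fold. The rise of LTBP3, which stores latent TGF-beta in the matrix, rested on widely spread MTAP-negative arrays at 8.91, 8.58 and 6.35 against 10.38, 10.04 and 10.07. It was 2.22 ± 0.54 (adjusted p = 0.0129), 1.42 ± 0.17 without MTAP-negative replicate 3, and did not pass with the ACTB control as a covariate (adjusted p = 0.0565). The falls were FSTL3 (-0.39), a follistatin relative, and the BMP target ID3 (-0.64), and 1 of the 2 was left without MTAP-negative replicate 1 or 2, MTAP-positive replicate 1 or 3 or any 1 inhibitor-treated array.

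**Figure D4:**
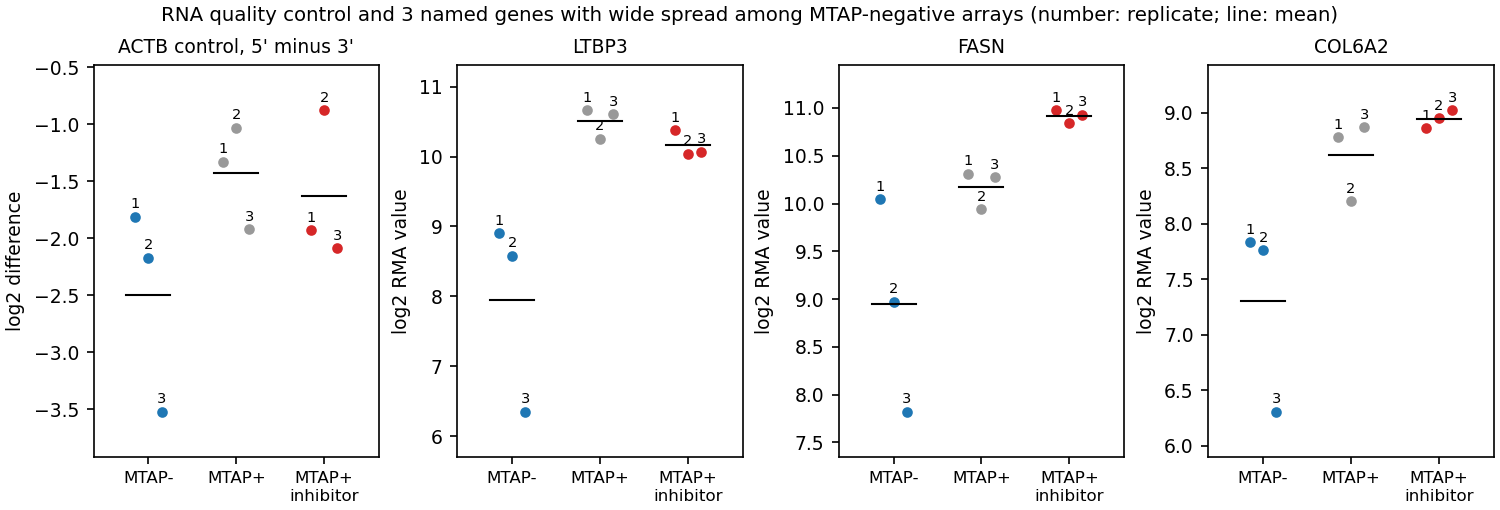
ACTB control signal at the 5' end less that at the 3' end (left panel, log2) and the log2 values of LTBP3, FASN and COL6A2 on each array by group; numbers give the replicate and lines the group mean. MTAP-negative replicate 3 is lowest in each panel, at -3.52 for the control and at 6.35, 7.82 and 6.31 for the 3 genes.

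Some of the genes that rose, and the ACTB control, read lowest on MTAP-negative replicate 3. Among the called genes, LTBP3, FASN, PLD3, TRMT2B, GXYLT2 and COL6A2 had the widest spread over the MTAP-negative arrays, with an SD of 1.39 to 0.86. In LTBP3, FASN, PLD3, GXYLT2 and COL6A2 the lowest value was on MTAP-negative replicate 3, the array with the most negative ACTB control. Among the MTAP-negative arrays TRMT2B was highest there, at 7.54 beside 5.70 and 5.89. PLD3, TRMT2B and GXYLT2 were named after their values were seen. With the ACTB control as a covariate the rise was 1.55 ± 0.5 for LTBP3, 1.46 ± 0.42 for FASN and 1.27 ± 0.37 for COL6A2 (limma, adjusted p = 0.0565, 0.0367 and 0.0398). What part of the rises comes from RNA quality was not tested. Over all genes 2203 passed with this covariate in place of 3042. In that fit 41 mitosis genes were lower and 19 genes of collagens and matrix glycoproteins higher, in place of 42 and 24.

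Other counts fell further with this covariate. The methionine cycle and folate list had 5 rises in place of 8, and the arginine methyltransferase list 3 falls in place of 5. The falls became 5 in place of 8 for p53 targets, 7 in place of 11 for ribosome biogenesis, 2 in place of 4 for the Wnt pathway and 3 in place of 5 for the respiratory chain. They became 1 in place of 6 in the endoplasmic reticulum list and 1 in place of 3 among cancer-testis antigens. The rises became 3 in place of 5 for histone and DNA methyltransferases, 1 in place of 3 for the respiratory chain, 1 in place of 2 for actin genes and 0 in place of 2 for ribosomal proteins. Lists with 1 or 2 falls also lost 1: methionine and folate and fatty acid synthesis had 1 left, and matrix, integrin, hypoxia and mesenchymal genes 0.

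Growth factor and angiogenesis genes had 10 of 22 members higher (45.5%, beside 17.3% of all genes) and 2 lower (9.09%, beside 14.9%, median 0.42). VEGFA, the main angiogenic factor, read 10.61, 11.18 and 10.78 against 12.08, 12.06 and 12.03 (1.20 ± 0.14, adjusted p = 4.08e-04). Stanniocalcin, STC1, rose 2.49-fold and the neuropilin NRP2 2.25-fold, while HBEGF (-0.57) and the ERBB ligand NRG1 (-1.19 ± 0.12) fell. The brightest NRG1 probe set carried that fall, and its other 2 probe sets differed by -0.18 and 0.15 and did not pass. MET, the receptor of hepatocyte growth factor, differed by 0.06 ± 0.11.

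Interferon response genes had 20 of 34 members higher (58.8%, beside 17.3% of all genes) and 4 lower (11.8%, beside 14.9%, median 0.56). HLA-B, a class I antigen-presenting molecule, read 9.14, 8.86 and 8.90 in MTAP-negative cells and 10.56, 10.49 and 10.41 in inhibitor-treated cells, a 2.87-fold rise (1.52 ± 0.14, adjusted p = 1.33e-04). HLA genes resemble one another, so their probe sets may share signal. The exonuclease ISG20 rose 2.74-fold, the membrane protein IFITM1 at least 2.31-fold and the immunoproteasome subunit PSMB9 2.31-fold. The 4 that fell are also induced by interferon: ISG15 (-0.83), IFIT5 (-0.55), IFIT1 by at least 0.82 and SAMD9. SAMD9 read 6.69, 6.91 and 6.71 against 4.70, 5.44 and 4.96, a fall to below the level of 6.64 that is a bound of only 1.09-fold. IFITM3, the brightest member that did not pass, differed by 0.27 ± 0.12. In untreated MTAP-positive cells 20 of the 34 genes were higher and 0 lower than in MTAP-negative cells, without the replicate block. Over all genes these shares were 9.83% and 5.31%. With inhibitor, 2 of the 34 genes were higher and 7 lower than in untreated MTAP-positive cells, beside 4.63% and 5.95% of all genes.

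Targets of NF-kB and cytokines had 9 of 19 members higher (47.4%, beside 17.3% of all genes) and 2 lower (10.5%, beside 14.9%, median 0.48). IL1A rose 3.57-fold, from 6.56, 7.08 and 6.49 to 8.18, 8.87 and 8.59 (1.84 ± 0.25, adjusted p = 8.17e-04), and the subunit RELB 2.23-fold. The cytokine CXCL8 differed by -0.13 ± 0.15, and the falls were the feedback inhibitor TNFAIP3 (-0.60) and the BCL2 relative BCL2A1 (-0.98). Immediate early and feedback genes of the MAPK cascade had 14 of 28 members higher and 2 lower (median 0.43). These were 50% and 7.14%, beside 17.3% and 14.9% of all genes, and the rises became 9 without inhibitor-treated replicate 1. The nuclear receptor NR4A2 was at least 3.2-fold higher, the feedback inhibitor SPRY2 2.55-fold and PHLDA1 2.27-fold. MYC, a driver of growth, rose 2.4-fold, from 7.79, 8.10 and 7.89 to 9.11, 9.27 and 9.18 (1.26 ± 0.11, adjusted p = 1.07e-04), while the cell cycle genes described above fell. The falls were JUN (-0.40) and SPRED1 (-0.56), 1 of them without inhibitor-treated replicate 3.

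Genes of hypoxia and glycolysis had 16 of 37 members higher and 1, the mutase PGAM1 (-0.36), lower (median 0.36). These were 43.2% and 2.7%, beside 17.3% and 14.9% of all genes. After TXNIP and ALDOC came NDRG1, a stress-induced protein (3.48-fold, 1.80 ± 0.12), and the MYC antagonist MXI1 (2.62-fold). NDRG1 read 10.49, 10.28 and 10.21 against 12.06, 12.13 and 12.18, with no overlap. The PGAM1 call was lost without MTAP-negative replicate 1 or 3 or inhibitor-treated replicate 2 or 3. GAPDH, a glycolytic enzyme used as a loading reference, was at 14.32 ± 0.02 and 14.20 ± 0.03 (SD, n = 3) and did not pass.

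**Figure D5:**
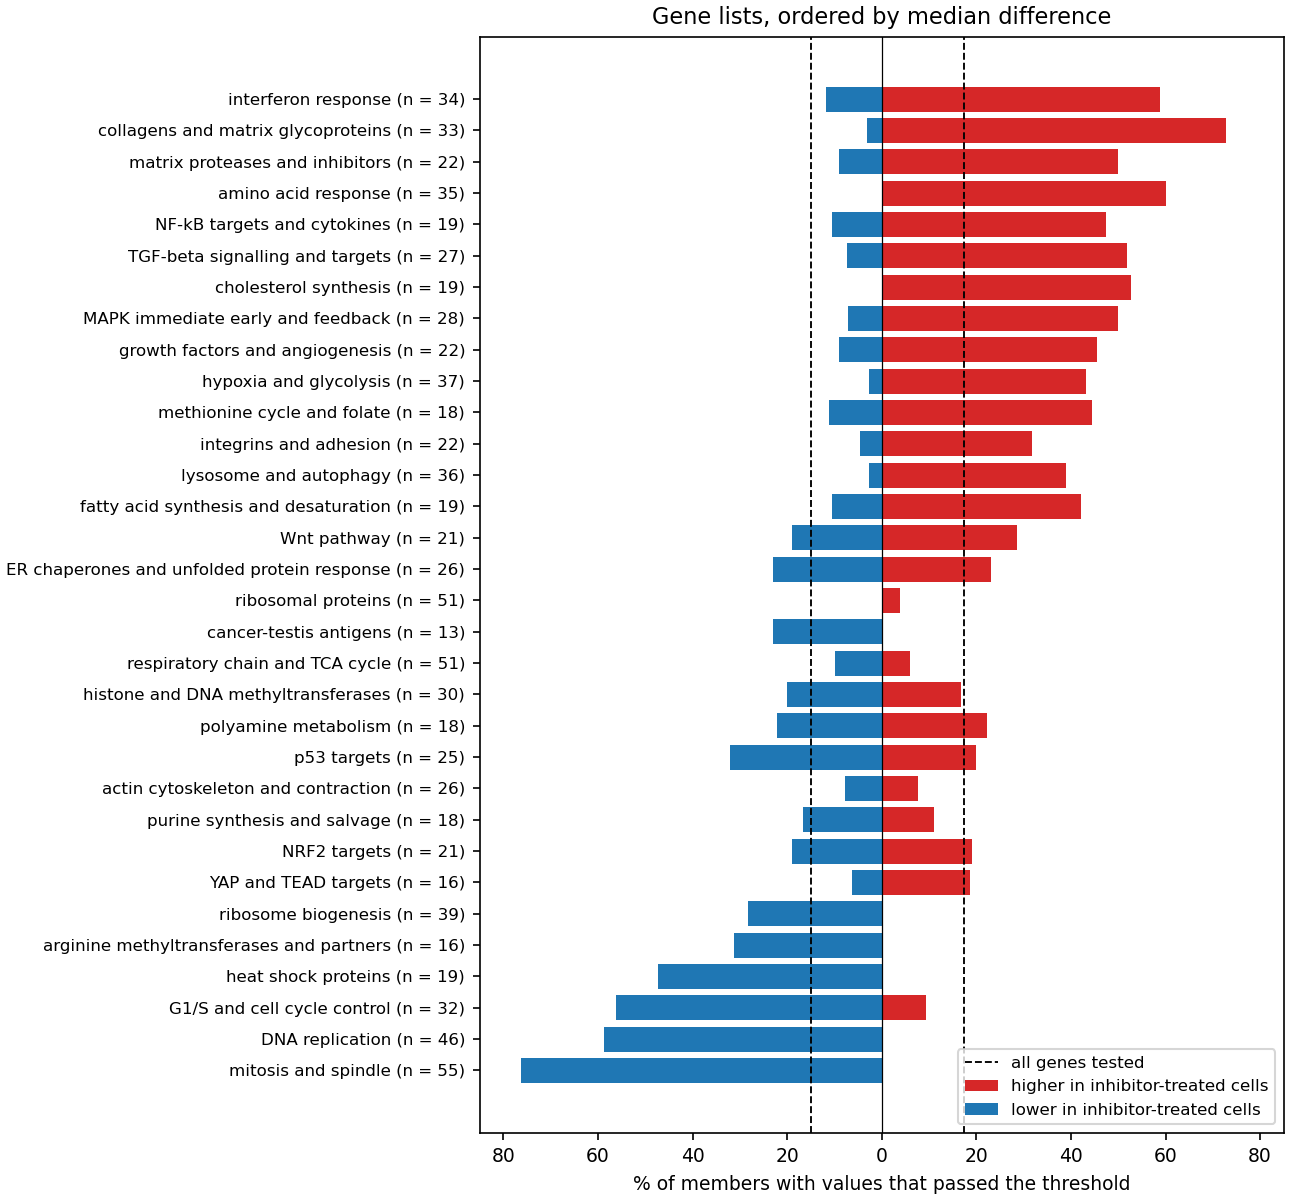
Share of members with values (x axis, %) that were higher (red, to the right) or lower (blue, to the left) in inhibitor-treated cells for 32 gene lists with at least 10 members, ordered by median difference; dashed lines mark the shares over all genes tested, 17.3% higher and 14.9% lower. Interferon, matrix and amino acid response genes stand at the top and mitosis, replication and G1/S genes at the bottom.

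Of 19 heat shock proteins and co-chaperones 9 were lower and 0 higher (median -0.28). The co-chaperone DNAJB6 was at 9.36 ± 0.05 (SD, n = 3) in MTAP-negative cells and 8.14 ± 0.13 in inhibitor-treated cells, a 2.32-fold fall (-1.22 ± 0.11, adjusted p = 1.31e-04). Untreated MTAP-positive cells, at 9.34, did not pass against MTAP-negative cells (adjusted p = 0.938). HSPB8 fell 1.89-fold and HSPH1 1.82-fold, while HSP90AA1 differed by -0.27 ± 0.10 and did not pass. Of 26 genes of the endoplasmic reticulum 6 were higher and 6 lower (23.1% each, beside 17.3% and 14.9% of all genes). The rises were led by HERPUD1 (2.09-fold) and the stress sensor ERN1 (1.83-fold), and the falls by SDF2L1 (-0.82 ± 0.12). The chaperone HSPA5, the usual marker of this stress, was at 12.01 ± 0.17 and 12.17 ± 0.07 (SD, n = 3) and did not pass. The 6 falls became 1 without MTAP-negative replicate 3 or inhibitor-treated replicate 3, 3 without replicate 1 of either group and 2 without inhibitor-treated replicate 2. The 6 rises became 3 without inhibitor-treated replicate 2.

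Ribosome biogenesis had 11 of 39 members lower and 0 higher (median -0.21), led by NOP58 (-0.84 ± 0.12) and PNO1 (-0.79 ± 0.12), and the number of falls was 4 to 7 when any 1 of the 6 arrays was left out. Of 51 ribosomal proteins 2 were higher (RPS9 and RPL12, both lost when any 1 inhibitor-treated array was left out, with adjusted p up to 0.083 and 0.101) and 0 were lower. The rises numbered 12 with trend and robust moderation, 5 with array weights, 5 without MTAP-positive replicate 2 and 0 without MTAP-negative replicate 3. Respiratory chain and TCA cycle genes had 3 of 51 higher (5.88%, beside 17.3% of all genes) and 5 lower (9.8%, beside 14.9%). Among them were IDH2 (0.61) and cytochrome c, CYCS (-0.60), and the falls became 1 to 3 when any 1 of the 6 arrays was left out. The rises became 1 without inhibitor-treated replicate 1 or 3 and 5 without MTAP-positive replicate 2. Histone and DNA methyltransferases had 5 of 30 higher (16.7%, beside 17.3% of all genes) and 6 lower (20%, beside 14.9%). EZH2, the catalytic subunit of the Polycomb complex PRC2, was 1.9-fold lower (-0.93 ± 0.11, adjusted p = 4.25e-04) and SUV39H2 1.97-fold lower. The 6 falls of this list became 3 without MTAP-negative replicate 3 or without inhibitor-treated replicate 1 or 3. Its 5 rises became 3 without inhibitor-treated replicate 1 or 2. DNMT1, the maintenance DNA methyltransferase, differed by -0.28 ± 0.11 and did not pass.

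The p53 targets had 5 of 25 members higher (20%, beside 17.3% of all genes), such as GDF15 (1.85-fold) and PLK2 (1.73-fold). Another 8 were lower (32%, beside 14.9%), such as TP53I3 (-0.89 ± 0.13) and TRIAP1 (-0.75 ± 0.12). The 8 falls became 4 or 5 without MTAP-negative replicate 1 or 2 or inhibitor-treated replicate 1 or 2. NRF2 targets had 4 of 21 higher and 4 lower (19% each, beside 17.3% and 14.9% of all genes). EPHX1 (1.06 ± 0.09) led the rises, and GCLM, a subunit of the enzyme that starts glutathione synthesis (-1.16 ± 0.17), led the falls. Their rises became 1 without inhibitor-treated replicate 1, and their falls became 2 without replicate 3 of either group. Wnt pathway genes had 6 of 21 higher (28.6%), led by WNT5A (2.43-fold), and 4 lower (19%), led by DKK1. The Wnt falls became 2 without MTAP-negative replicate 2 or inhibitor-treated replicate 2, and 7 after a renewed quantile normalisation or with array weights. The YAP and TEAD targets had 3 of 16 higher (18.8%) and 1 lower (6.25%), tissue factor F3 (median -0.13), with 3 lower after centring and 4 with array weights. AXL, the brightest of them, was at 12.42 ± 0.08 and 12.29 ± 0.22 (SD, n = 3) and did not pass.

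Cancer-testis antigens, which HT1080 expresses, had 0 of 13 members higher and 3 lower (23.1%, beside 14.9% of all genes): SSX1 (-0.47 ± 0.11), MAGEA6 (-0.41 ± 0.11) and MAGEA1 (-0.35 ± 0.10). The dimmer SSX1 probe set differed by 0.09 (adjusted p = 0.707). Each of the 3 calls was lost without inhibitor-treated replicate 3 (adjusted p = 0.055, 0.064 and 0.0878), and 1 was left without inhibitor-treated replicate 2. Of 7 genes next to MTAP on chromosome 9p with values 0 passed in the limma fit. By limma's unadjusted p 1 passed, TUSC1 (-0.42, adjusted p = 0.0779 in limma). Of the 7 genes 1 was called lower with only the 2 compared groups fitted, with the replicate block or with array weights. The same count held without MTAP-positive replicate 2. A rise was called for 1 with the mean of a gene's probe sets, and for 1 of 5 without probe sets marked for several transcripts. KLHL9, the brightest, was at 9.88 ± 0.06 and 9.64 ± 0.11 (SD, n = 3).

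Some genes set inhibitor-treated cells apart from both other groups in the same direction. The 5 largest rises of this kind by the smaller difference were PAEP, PAX8-AS1, MMP9, TXNIP and APLN, which encodes the peptide apelin. APLN read 7.27, 7.05 and 7.41 in MTAP-negative, 7.31, 7.07 and 7.40 in untreated MTAP-positive and 9.11, 8.58 and 8.92 in inhibitor-treated cells. The first 2 groups overlapped throughout, and the inhibitor-treated arrays were at least 1 unit above both (1.62 ± 0.16 against MTAP-negative cells, adjusted p = 1.75e-04, and 1.61 against untreated MTAP-positive cells, adjusted p = 0.00187). The 5 falls were SAMD9, CCNE2, the calcineurin subunit PPP3R1, the non-coding LINC01963 and the mitochondrial protein GDAP1. LINC01963 read 7.65, 7.38 and 7.65 in MTAP-negative and 6.07, 6.59 and 6.12 in inhibitor-treated cells, a fall of at least 1.89-fold. PPP3R1 had means below 6.64 in both of these groups and gets no fold. GDAP1 fell at least 2.79-fold (-1.48 ± 0.17), with untreated MTAP-positive cells at 7.93 on average near the MTAP-negative 8.12.

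Other genes differed from MTAP-negative cells by as much with inhibitor as without it. Those with an inhibitor effect within 0.2 (log2) and an adjusted p above 0.5 were led by PTGES, the thrombin receptor F2R, the oxysterol receptor NR1H3, GAA and TGFBR2 among rises. PTGES read 6.01, 6.31 and 6.22 in MTAP-negative, 9.39, 8.83 and 9.21 in untreated MTAP-positive and 9.18, 8.80 and 8.98 in inhibitor-treated cells. Its MTAP-positive arrays overlapped with and without inhibitor, and all lay more than 2 units above the MTAP-negative ones. F2R rested on 1 of its probe sets (1.57 ± 0.26), and the other, at 7.66 and 7.59, differed by -0.07 (adjusted p = 0.625). The falls were F3, the non-coding ZNF232-AS1, FAM241B, the kinase MAPK8 and the splicing factor BCAS2. F3 read 8.77, 8.69 and 8.80 in MTAP-negative, 7.59, 7.54 and 7.09 in untreated and 7.40, 7.48 and 7.48 in inhibitor-treated MTAP-positive cells, a 2.46-fold fall (-1.30 ± 0.14, adjusted p = 2.24e-04). An adjusted p that missed the threshold does not show that the inhibitor left these genes unchanged: for TGFBR2, the inhibitor-treated minus untreated difference was 0.03 ± 0.09 (SE).

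Among the brightest called genes most differences were small. RPL12 (0.33), NAP1L1 (0.29) and TMEM158 (1.08 ± 0.10, 2.12-fold) were higher and ACTB (-0.32), TUBA1C (-0.27) and DHRS2 (-0.37) lower. Except for TMEM158 these calls were lost in 6 to 11 of the 20 or 21 alternatives run for each, among them the one without inhibitor-treated replicate 3. Of 3983 genes with more than 1 probe set, 1258 passed, and of their 1889 other probe sets 1648 differed in the same direction and 969 passed too. In 45 genes a probe set passed in each direction. Called genes lay on chromosomes 1 to 22 and X, from 25.6% of the genes tested on chromosome 19 to 39.6% on chromosome 18, with medians from -0.139 on chromosome 10 to 0.184 on chromosome 21.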

How the data were processed

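RNA of 9 HT1080 cultures in 3 groups was measured on Affymetrix U133 Plus 2.0 arrays. The authors deposited 1 table of log2 values made with RMA, per the submitters' processing notes, which give no version of it here. RMA subtracts background, quantile-normalises the arrays and summarises probes, so a broad shift of all genes in one direction would be removed. Of 54675 probe sets listed, 37201 had no value, and 17466 of the others were not controls. Arrays have no read depth, and 3 arrays per group limit the precision: the median standard error of a difference was 0.1398 (log2).

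The deposited values were fitted without further scaling by limma 3.58.1 in R 4.3.3 (lmFit and eBayes, 3 groups over 9 arrays). Benjamini-Hochberg adjustment ran over 17466 probe sets, with a threshold of 0.05. Symbols came from the platform annotation: 15485 probe sets had 1 symbol, 841 several and 1140 none, and 15482 matched the RefSeq gene table. A gene was read through its 1-symbol probe set with the highest mean. The test was checked on simulated data, where it recovered 17 of 100 changes of 0.5 (log2) and 68 of 100 changes of 1. Far fewer probe sets were changed there than the 5359 called in the data, which makes the adjustment stricter. These rates therefore do not tell what share of real changes the comparison found.

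The comparison and the gene lists were chosen with earlier results of these data known. Genes were named by rule: MTAP, the 12 largest non-overlapping rises and falls, up to 4 called members and the brightest uncalled member of each list, the 5 rises and 5 falls set apart from both other groups, the 5 and 5 called with an inhibitor effect within 0.2, and the 3 brightest called genes in each direction. Members that make up a count of 5 or fewer, and a few other list members, were named after their values were seen. Promoter sequences are RefSeq's (GRCh38.p14). Figures were drawn with matplotlib 3.10.9 in Python 3.11.15. Same-numbered arrays of untreated MTAP-positive cells correlated in their deviations with both other groups (0.225 to 0.702), but the 2 compared groups did not do so in all pairs (-0.006 to 0.2), so the fit has no replicate block. The 21 alternatives concern scaling, filters, choice of probe set, moderation, covariates, weights, the replicate number and leaving out each array.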

Additional observations from a re-analysis of the deposited data

How the results depend on the processing

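Under 21 alternatives, 131 of 164 named genes called were called each time, 33 lost the call at least once and 3 changed direction. Those 3 did so once probe sets marked as able to bind several transcripts were dropped: F2R at -0.07, NRG1 at 0.15 and TKT at -0.55. Of 38 named genes not called, 13 were called in at least 1 alternative. Of 735 list medians compared, 676 stayed within the spread between arrays. The cause of the shifts below was not tested. Centring the arrays moved the median over all genes to -0.058 and the share of higher calls to 44.4%, with list medians of 0.49 for collagens, -0.56 for DNA replication, -0.34 for heat shock proteins and 0.03 for ribosomal proteins. Renewed quantile normalisation gave -0.051, a share of 45.1%, -0.07 for the Wnt pathway and 0.07 for ribosomal proteins. A filter at the 40th percentile, and 1 probe set per gene above it, both gave 0.62 for collagens, 0.40 for fatty acid synthesis, 0.66 for TGF-beta, -0.32 for cancer-testis antigens and 0.50 for mesenchymal markers. A filter at the 60th percentile, which tests fewer genes, left 2837 probe sets and 1881 genes called, 924 of them higher (49.1%). It gave -0.13 for arginine methyltransferases, 0.62 for collagens, 0.65 for interferon, -0.41 for G1/S, 0.41 for fatty acid synthesis, 0.66 for TGF-beta, 0.45 for Wnt, -0.28 for cancer-testis antigens and 0.51 for mesenchymal markers. The mean of a gene's probe sets gave 0.69 for collagens, 0.46 for integrins, -0.23 for heat shock, 0.33 for TGF-beta, -0.05 for YAP, 0.02 for Wnt and 0.46 for mesenchymal markers. Dropping the probe sets marked for several transcripts, which tests fewer members, left 3047 probe sets called. The medians were then -0.34 for arginine methyltransferases, 0.76 for interferon, -0.79 for mitosis, 0.57 for cholesterol, -0.49 for heat shock, 0.05 for YAP, -0.28 for ribosome biogenesis, 0.19 for ribosomal proteins and 0.13 for histone and DNA methyltransferases. The ACTB covariate gave -0.33 for arginine methyltransferases, 0.60 for collagens, -0.56 for replication, -0.78 for mitosis and -0.45 for heat shock, and array weights gave -0.40 for heat shock. Leaving out 1 array gave 3560 to 6030 probe sets, 2035 to 3413 genes and 887 to 1583 lower genes, the lowest without inhibitor-treated replicate 3. List medians then ranged from -0.11 to 0.05 for polyamines, -0.38 to -0.28 for heat shock, -0.17 to -0.05 for YAP, -0.55 to -0.47 for replication, 0.27 to 0.37 for hypoxia, -0.55 to -0.44 for G1/S, -0.03 to 0.07 for histone and DNA methyltransferases, -0.76 to -0.64 for mitosis and 0.38 to 0.58 for TGF-beta. With the replicate number as a block 3606 genes were called. Same-numbered arrays of the 2 compared groups correlated at 0.2, 0.008 and -0.006 in their deviations from the group means, so the numbers were not taken to pair them, and not every array correlated best with its own number. The correlations were 0.702, 0.594 and 0.321 between untreated and inhibitor-treated MTAP-positive arrays and 0.284, 0.225 and 0.248 between untreated MTAP-positive and MTAP-negative arrays, all above 0.1, so that the numbers were taken to pair those 2 comparisons. Their counts come from the fit without the block, with blocked counts beside those that it moved by over 1.5 times.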
